A study of Ovis aries with 15 samples.

Results

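The broadest stretches of the autosomes that carried trimethylated lysine 27 of histone H3 (H3K27me3) and neither H3K4me3 nor H3K27ac were described in perirenal fat of merino sheep before and after birth. A domain here is a called H3K27me3 region on chromosomes 1 to 26 that shares no base with a called H3K4me3 or H3K27ac region. Of 107166 H3K27me3 regions, 83493 were autosomal, and 69731 of these overlapped neither other mark. The 1000 widest of those 69731 are the domains. Of the 13762 autosomal regions left out for an overlap, 12479 overlapped an H3K4me3 region and 3799 an H3K27ac region.

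The chromatin came from 2 groups of wild type, purebred merino animals to which no treatment was applied, per the labels. Fetuses were sampled at 132 ± 1 days of gestation (term 150 ± 3 days), and lambs at 80 days after birth in one label and 89 ± 7 days in another. H3K27me3 was profiled in 2 fetuses and 2 lambs, H3K27ac in 2 and 2, and H3K4me3 in 2 fetuses and 3 lambs, by native chromatin immunoprecipitation of the whole tissue. The titles of the lamb libraries carry the tag VEH and the fetal ones do not, so whatever it stands for cannot be told apart from stage. Sex is not in the labels.

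H3K27me3 is laid down by Polycomb repressive complex 2, whose EZH subunits methylate the histone and whose EED subunit binds the finished mark, so that the mark can spread from nucleosome to nucleosome. Polycomb repressive complex 1 reads the mark and compacts the chromatin. Broad H3K27me3 domains typically cover silent regulators of other lineages. The same lysine cannot be acetylated while it is trimethylated, and H3K27ac marks active enhancers and promoters, whereas H3K4me3 marks promoters. Perirenal fat of sheep is largely brown, heat-producing fat around birth and turns into white storage fat in the first weeks of life. The study followed the marks across this transition.

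Tissue identity was checked on the authors' promoter tables, which list genes with a marked promoter. The H3K27ac table listed 7 of 8 adipocyte markers, among them ADIPOQ, FABP4 and PLIN1, with PPARG not listed, and 5 of 5 brown fat markers, UCP1 included. The H3K27me3 table also listed fat genes: 4 of the 8 adipocyte markers (PLIN1, LEP, LPL and CEBPA) and 3 of the 5 brown fat markers (UCP1, CIDEA and ADRB3). Of 8 markers of other cells, the H3K27ac table listed 4: CD3D of T cells, CD68 of macrophages, and NR5A1 and STAR of the adrenal cortex. The H3K27me3 table listed 4 as well, CD3D, NR5A1 and the muscle genes DES and MYH11. In whole tissue, a mark lost from every cell and a smaller share of cells that carry it cannot be told apart. Of 10 regulators and markers of other lineages, the H3K27me3 table listed 6, PAX6, GATA4 and MYOD1 among them, and the H3K27ac table listed 1, ALB, which was in both tables. The domains themselves are given by position on the Oar_v3.1 build and are not linked to genes here.

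Each H3K27me3 library held 4244517 to 5375459 reads in autosomal regions. Replicates differed by more than counting noise, with a chi-square per degree of freedom of 2.10 between the fetuses and 3.54 between the lambs over all autosomal regions. The X chromosome took 49.5% and 48.7% of all region reads in the fetuses but 29.7% and 41.3% in the lambs. For that reason the libraries were scaled from autosomal regions alone. Density below is reads per kb of domain per 1000000 scaled autosomal region reads.

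The domains were 5100 to 23900 bp wide, with a median of 6250 bp. Only 79 were wider than 10 kb and 14 wider than 15 kb, and together they covered 7.02 Mb. The median domain held 275 reads per library, against 28 for the median autosomal H3K27me3 region, so that counting noise weighs less here than on the table as a whole. Regions just inside and just outside the limit were alike in width: 15 domains were 5100 bp wide, and 4 regions of that same width fell outside through the ordering by position. The last 3 domains inside had log2 changes from fetus to lamb of -0.31, -0.52 and -0.13, and the first 3 outside had -0.29, 0.12 and -0.23.

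The domains were spread over all 26 autosomes but not evenly. There were 4.08 domains per 10 Mb of autosome, with 12.7 on chromosome 11, 10.8 on chromosome 14, 9.52 on chromosome 13 and 8.07 on chromosome 22. At the other end, chromosome 8 held 0.88 per 10 Mb and chromosome 16 held 1.12. Chromosomes 3, 11, 13, 2 and 14 together carried 384 of the 1000. Regions without another mark were unevenly spread as a class, with 3671 on chromosome 11 and 1525 on the longer chromosome 8, of which 2.15% and 0.525% were domains. Of 491 windows of 1 Mb with at least 1 domain, 120 held 3 or more, and these 120 windows held 525 domains.

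Density was the first readout. The median domain had a density of 9.00 and 9.62 in fetuses 1 and 2, and of 7.62 and 7.75 in lambs 1 and 2. Both lambs thus lay below both fetuses. The middle 90% of domains ran from 6.16 to 13.8 in fetus 1, 6.60 to 15.0 in fetus 2, 4.33 to 11.5 in lamb 1 and 4.75 to 10.8 in lamb 2. Averaged over the libraries, density differed 4.21-fold between the weakest domain (5.31) and the strongest (22.4). Wider domains tended to be denser (Spearman's rho 0.25 across the 1000 domains, which share their 4 libraries).

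**Figure D1:**
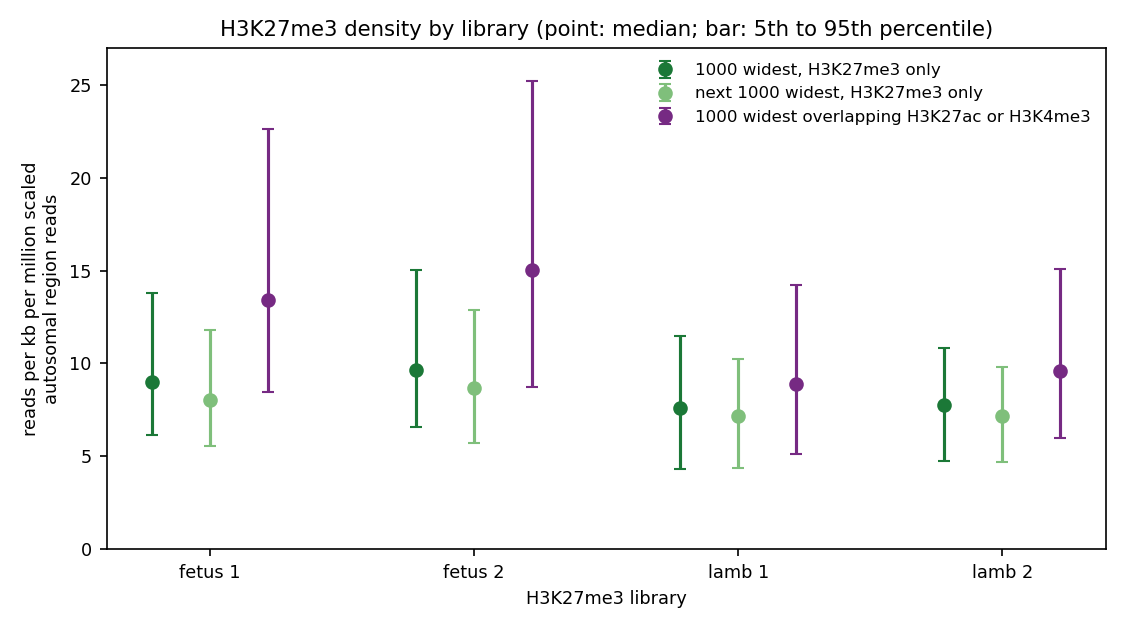
H3K27me3 density (reads per kb per 1000000 scaled autosomal region reads) in each of the 4 H3K27me3 libraries. Points are medians and bars the 5th to 95th percentile over 1000 regions for the domains, for the next 1000 widest regions without another mark, and for the 1000 widest autosomal H3K27me3 regions that overlap H3K27ac or H3K4me3; the domains' medians are 9.00 and 9.62 in the fetuses and 7.62 and 7.75 in the lambs.

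Under scaling from autosomes, the domains were called lower in lambs more often than higher, an order that turned under a correction by read abundance. In the edgeR quasi-likelihood test over all autosomal regions (Benjamini-Hochberg adjusted p under 0.05), 217 of the 1000 domains were lower in lambs (21.7%), where 7.10% of the autosomal regions tested were lower. A rise was called at 11 domains (1.1%), where 3.66% of the regions tested rose. In either direction, 10.8% of the regions tested were called. These shares were not taken at like depth, since the median domain held 275 reads per library and the median region tested 28. At an unadjusted p under 0.05 the domains numbered 404, against 26.3% of the regions tested. The authors' deposited table called 185 domains lower and 6 higher at a corrected p under 0.05, with 6.32% and 3.32% of its autosomal regions called.

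The downward shift under this scaling was broad and modest. The median log2 change from fetus to lamb was -0.31 over the domains, with a middle 90% from -1.03 to 0.27, against a median of 0.01 over all regions tested, and 814 domains had a negative change. Both lambs lay below both fetuses at 613 domains, where 27.9% of the regions tested did so. Both lambs lay above both fetuses at 74, where 28.8% of the regions tested did so, and the stages overlapped at 313. The median absolute difference was 0.34 between stages, 0.16 between the 2 fetuses and 0.22 between the 2 lambs. Over all regions tested, which hold fewer reads, these values were 0.50, 0.33 and 0.41. Domain by domain, log2 density correlated at r = 0.83 between the fetuses and r = 0.69 between the lambs, but at 0.21 to 0.40 between a fetus and a lamb (1000 domains, shared libraries).

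The size and the sign of this shift depended on the scaling. With TMM factors from all chromosomes the median of the domains was -0.02, with 75 domains lower and 40 higher, and that of all regions 0.31. With library totals it was -0.14, with 134 lower and 27 higher, and that of all regions 0.18. Both of these set 1 factor per library and move every region alike, so they cannot change how the domains lie against other regions. A loess correction by read abundance, which by construction removes any change that goes with how many reads a region holds, turned the median of the domains to 0.15, with 48 lower and 93 higher, against 0.04 over all regions, so that the domains then lay above other regions and not below them. The log2 changes correlated closely with the values used here in each scaling, with the lowest Pearson's r, 0.989, under the loess correction.

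**Figure D2:**
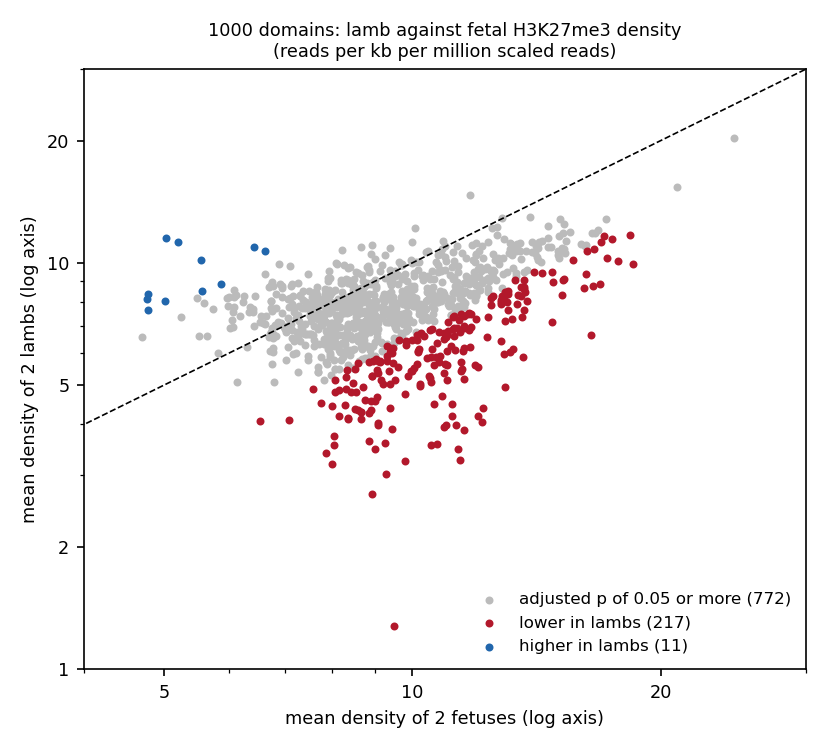
Mean H3K27me3 density of the 2 lambs (vertical, log axis) against that of the 2 fetuses (horizontal, log axis), in reads per kb per 1000000 scaled autosomal region reads, for each of the 1000 domains. Red points are the 217 domains lower in lambs and blue points the 11 higher at an edgeR adjusted p under 0.05. Most points lie below the dashed line of equal density under this scaling. The 11 that rose lie at the low end of fetal density, which choosing them by their change favours.

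The counts also moved with the libraries used. Without fetus 1 the lower domains numbered 87 and the higher ones 2, without fetus 2 there were 45 and 1, and without lamb 2 there were 298 and 26. Of the 217 lower domains, 48 stayed lower under each of the 4 other scalings, 41 stayed lower whichever library was left out, and 38 did both, each of which was also lower by DESeq2. All 217 kept a negative change whichever library was left out. That was nearly fixed in advance, since both lambs lay below both fetuses at each of the 217. Of the 11 higher domains, 9 kept their call under each scaling and 1 whichever library was left out.

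Width and the fall went together across regions without another mark. Width and read counts come from the same experiment and are not independent, and on which libraries regions were called is not stated. The median log2 change was 0.26 for regions of 550 to 950 bp, 0.05 for 1000 to 1950 bp, -0.14 for 2000 to 3450 bp, -0.24 for 3500 to 5100 bp and -0.31 for the domains. The share called lower was 0.86%, 4.47%, 10.8%, 13.9% and 21.7% in the same order. The median reads per library rose from 19 to 275 over these classes, and the part of read number in the trend was not tested beyond the loess correction above. The next 1000 widest regions, 3900 to 5100 bp wide, had a median of -0.25, with 139 lower and 13 higher. Within the domains the trend was faint: the 250 widest had 56 lower domains and the 250 narrowest 52, and Spearman's rho of width with the change was -0.07.

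Wide regions that did overlap H3K27ac or H3K4me3 are given beside the domains as a description. The 1000 widest of those, 7700 to 50700 bp, had a median log2 change of -0.66, and 640 were lower and 17 higher. As a share of all autosomal H3K27me3 region reads, the domains took 6.49% and 6.63% in the fetuses and 5.82% and 5.87% in the lambs. The 2 stages did not overlap: the mean was 6.56% ± 0.10 in fetuses and 5.84% ± 0.04 in lambs (SD, n = 2 each), a difference of -0.71 percentage points (exact permutation test, two-sided p = 0.33, the smallest that 2 against 2 allows). The wide regions with another mark went from 20.6% to 16.1%, and all regions without another mark from 52.1% to 57.9%. Counted against the region reads of all chromosomes instead, the domains' share was 0.43 points higher in lambs, where fewer region reads lay on the X chromosome.

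**Figure D3:**
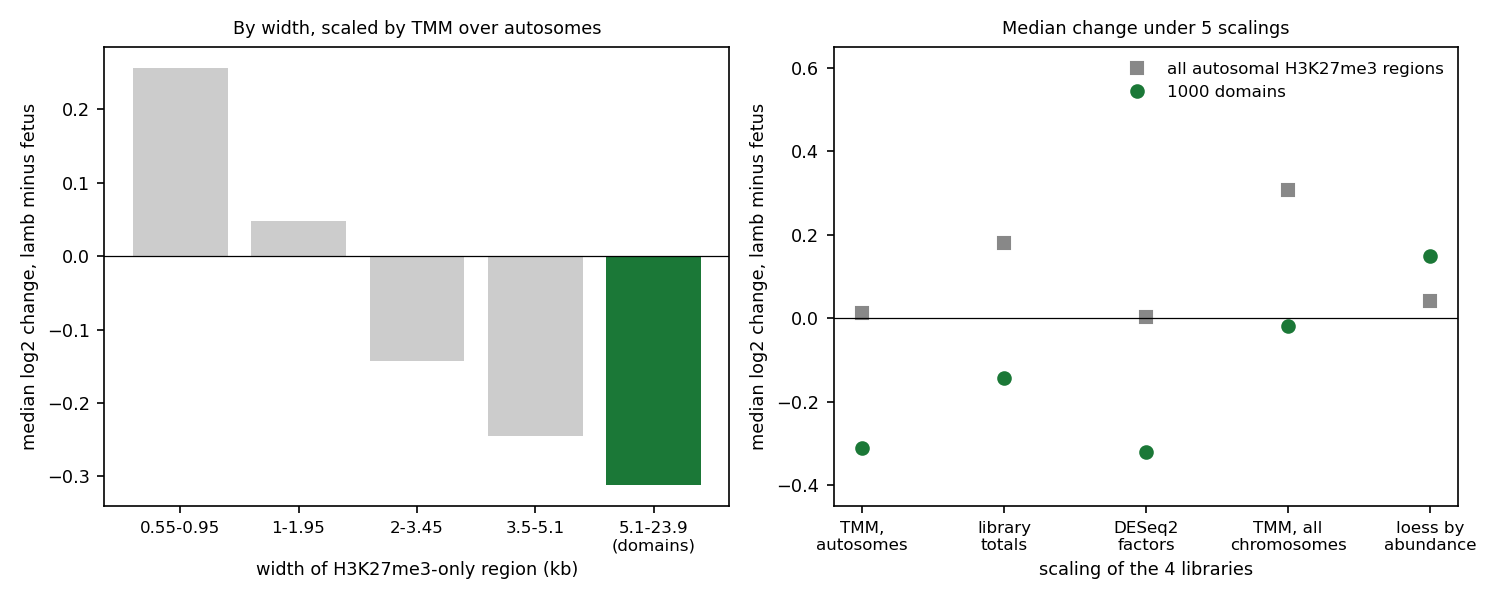
Left, median log2 change from fetus to lamb (vertical) of autosomal H3K27me3 regions without another mark by width class in kb, from 0.26 in the narrowest to -0.31 in the domains, under TMM scaling over autosomes. Right, the same median for all autosomal H3K27me3 regions (squares) and for the domains (circles) under 5 scalings of the 4 libraries; the domains lie below all regions in 4 and above them under the loess correction.

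The widest domain, chr22:20748301-20772200 (23900 bp), had densities of 13.0 and 14.4 in the fetuses and 10.9 and 10.5 in the lambs. The lambs lay below the fetuses, but the log2 change of -0.36 did not pass the threshold (SE 0.19, edgeR adjusted p = 0.199). Among the 10 widest domains, 4 were lower in lambs and none higher. These 4 were chr13:40627801-40646750 (18950 bp, log2 change -0.65, edgeR adjusted p = 0.0095), its neighbour chr13:40653251-40669400 (16150 bp, -0.62, adjusted p = 0.0174), chr21:23694951-23713100 (18150 bp, -0.55, adjusted p = 0.0354) and chr18:6865851-6881550 (15700 bp, -0.62, adjusted p = 0.0201). All 4 missed the threshold with TMM factors from all chromosomes, without either fetus and without lamb 1, and their changes turned to between 0.00 and 0.14 under the loess correction.

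At the first of these, density was 16.5 and 20.2 in the fetuses and 10.8 and 12.6 in the lambs. The pair on chromosome 13 shared their nearest H3K27ac region, which lay 43.35 kb from the first and 20.7 kb from its neighbour. That H3K27ac region was itself lower in lambs by a log2 change of -1.06 (edgeR adjusted p = 0.0101). The other widest domains were chr3:132576901-132598050, chr17:46222351-46242100, chr25:25701951-25719250, chr11:13551201-13567850 and chr12:40330751-40346550, with log2 changes of -0.27, -0.11, -0.48, -0.29 and 0.00. The last of them had densities of 10.2 and 11.5 in the fetuses and 10.8 and 10.9 in the lambs, which overlap (edgeR adjusted p = 0.998).

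The domain with the largest fall was chr19:7064451-7070850 (6400 bp). It held 355 and 256 reads in the fetuses and 32 and 48 in the lambs, which are densities of 10.6, 8.39, 0.89 and 1.66. Density was 7.44-fold higher in the fetuses, with a log2 change of -2.92 (SE 0.26, edgeR adjusted p = 4.5e-25). This made it, over all libraries, the second weakest of the 1000 domains, although its fetal density was near the middle of the fetal range. On the same chromosome, chr19:7153801-7158950 went from 10.7 and 12.2 in the fetuses to 3.19 and 3.36 in the lambs (log2 change -1.80, edgeR adjusted p = 2.2e-11).

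The other 4 of the 6 largest falls lay on chromosomes 3, 4 and 9. At chr3:5425001-5430450 density was 9.88 and 8.01 in the fetuses and 2.46 and 2.93 in the lambs (log2 change -1.74). At chr4:96074701-96081900 it was 10.7 and 12.0 in the fetuses and 4.37 and 2.59 in the lambs (-1.70). At chr9:24735701-24743150 it was 7.41 and 11.2 in the fetuses and 2.35 and 3.69 in the lambs (-1.63). At chr3:104170051-104175500 it was 9.08 and 10.5 in the fetuses and 2.92 and 3.58 in the lambs (-1.60). At these 6 no lamb lay above 4.37 and no fetus below 7.41. They were chosen as the largest falls without overlap of the stages, so a gap between the groups follows from the choice. Each of the 6 kept its call under every scaling, by DESeq2 and without any 1 library.

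Several of these falls lay beside H3K27ac or H3K4me3 regions that did not themselves pass the test. The domain on chromosome 4 ended 0.05 kb from an H3K27ac region (log2 change 0.28, edgeR adjusted p = 0.247), the one at chr3:5425001-5430450 lay 0.45 kb from an H3K4me3 region (0.37, adjusted p = 0.523), and the one on chromosome 9 lay 0.45 kb from an H3K27ac region (-0.01, adjusted p = 0.960).

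The 217 lower domains as a group had a median log2 change of -0.79, from -2.92 to -0.55, and 59 changed by more than 1. Their median density was 10.9 in fetuses and 5.90 in lambs, a gap that choosing them by their change favours. The 772 domains that were not called went from 8.87 to 7.97, and 597 of them had a negative change.

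The 11 domains that rose had a low fetal density, which choosing them by their change favours. Their median density was 5.21 in fetuses and 8.85 in lambs, with log2 changes of 0.60 to 1.20, and 4 of the 11 lay on chromosome 3. Chromosome 3 held the most domains of any autosome, 88 of the 1000. The largest rise was at chr25:35212201-35218000 (5800 bp), with densities of 4.83 and 5.24 in the fetuses and 12.9 and 10.2 in the lambs. That is 2.29-fold higher in lambs, with no overlap (log2 change 1.20, SE 0.22, edgeR adjusted p = 8.8e-06), and it was the 1 rise that held whichever library was left out. The nearest H3K4me3 region, 0.55 kb away, was called higher in lambs (log2 change 1.95, edgeR adjusted p = 0.0478). Unlike the rise of the domain, that H3K4me3 call was lost without lamb 2. The nearest H3K27ac region, 20.6 kb away, was lower in lambs (-0.48, edgeR adjusted p = 0.0476).

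Next came chr3:206997751-207004650, at 5.64 and 4.77 in the fetuses and 10.5 and 12.0 in the lambs (log2 change 1.11, edgeR adjusted p = 3.0e-05), and chr3:206677951-206683400, at 5.77 and 5.31 against 9.58 and 10.8 (0.87, adjusted p = 0.0027). Each was lost as a call without fetus 2 (edgeR adjusted p = 0.0804 and 0.211), the latter also without fetus 1 (0.0965). The other named rises were chr1:6464601-6469800 (log2 change 0.80), chr12:40347301-40353600 (0.77) and chr3:59379501-59385650 (0.76). At the last of these the lambs were far apart, at 7.91 and 14.0, and the call was lost without lamb 2 (log2 change 0.31, edgeR adjusted p = 0.289). The domain on chromosome 12 lay 0.75 kb from chr12:40330751-40346550, the wide domain above with a log2 change of 0.00, which under the loess correction was higher in lambs (0.63, edgeR adjusted p = 0.0075).

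**Figure D4:**
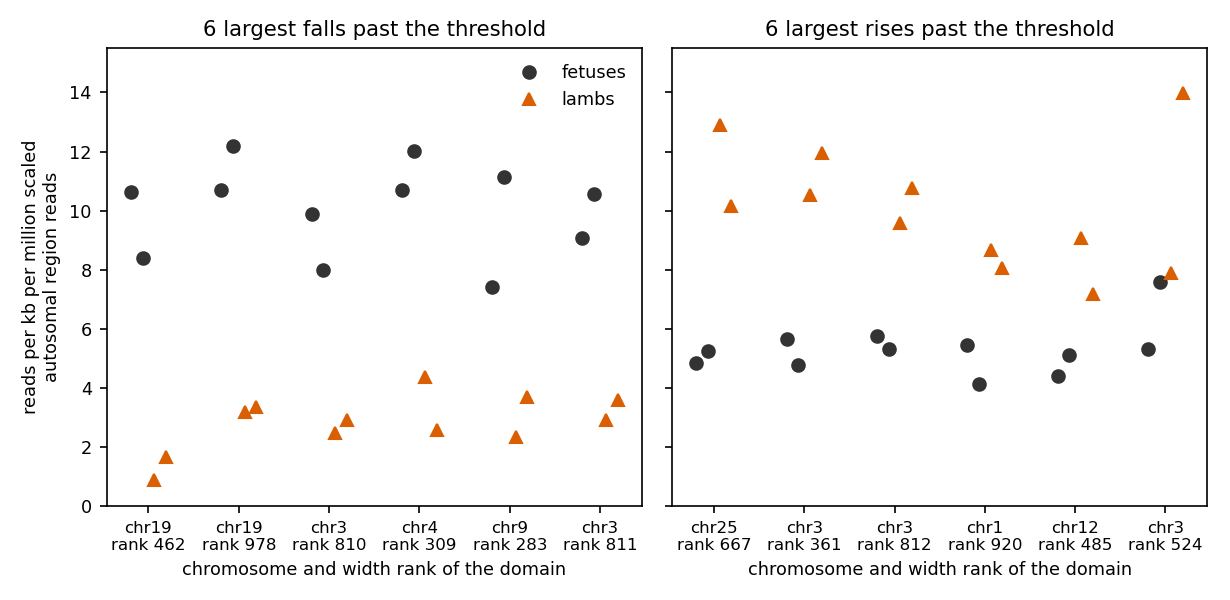
H3K27me3 density (reads per kb per 1000000 scaled autosomal region reads, vertical) in each fetus (circles) and lamb (triangles) at the 6 domains with the largest falls and the 6 with the largest rises among those past the threshold, named by chromosome and by rank in width. The lambs lie between 0.89 and 4.37 at the falls and between 7.18 and 14.0 at the rises.

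The densest domain was chr14:50357601-50367450, at 23.9 and 25.2 in the fetuses and 23.4 and 17.1 in the lambs. Its mean density of 22.4 stood above that of the next, chr13:74584401-74590900, at 18.1. After these came chr13:40627801-40646750 (15.0), described above, and chr13:72785551-72791100 (15.0), so that 3 of the 4 densest lay on chromosome 13. At all 4, both lambs lay below both fetuses, and chr13:40627801-40646750 was the 1 that passed the test. At chr13:74584401-74590900 the log2 change was -0.45 (edgeR adjusted p = 0.126), and 0.13 under the loess correction. It passed the test only with a replicate block (edgeR adjusted p = 0.0364), which pairs different animals by number and so adds no support. The 4 weakest were chr4:95924951-95930150 (5.31), chr19:7064451-7070850 (5.40), chr12:21517301-21522500 (5.59) and chr19:29577801-29585200 (5.60), all lower in lambs, though the calls on chromosomes 4 and 12 were lost with library totals, with TMM factors from all chromosomes, under the loess correction and by DESeq2. Since the lamb reads enter the mean, weak domains and falls are not independent, and the 250 domains with the lowest density held 69 of the lower calls against 56 in the 250 densest.

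Change was next described by neighbourhood. The log2 changes of 346 pairs of adjacent domains no more than 100 kb apart correlated at r = 0.62 (pairs share domains and libraries). The nearest other H3K27me3 region within 5 kb, with a median width of 1500 bp, had a log2 change that correlated with that of its domain at r = 0.51 over 965 domains. Its median log2 change was -0.17 where that of the domains beside it was -0.31. All 26 autosomes had a negative median under autosomal scaling. It was farthest from 0 on chromosome 8 (-0.62, 8 domains) and chromosome 19 (-0.59, 40 domains, 20 of them lower) and nearest on chromosome 25 (-0.04, 10 domains). On chromosome 17, 2 of 45 domains were lower.

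The 5 windows of 1 Mb with the most domains differed from each other. From 74 Mb on chromosome 13, 14 domains had a median log2 change of 0.04, and 0 were called by edgeR or DESeq2 (2 at an unadjusted p under 0.05). From 60 Mb on chromosome 17, 13 domains had a median of -0.13 and 1 was lower. That count was 1 without lamb 1 and 0 with library totals, with TMM factors from all chromosomes, under the loess correction, by DESeq2 and without fetus 1, fetus 2 or lamb 2. From 40 Mb on chromosome 13, 12 domains had a median of -0.27 and 4 were lower, the wide pair among them. These 4 calls were 0 without fetus 2, 2 without fetus 1 or lamb 1, 6 without lamb 2, 1 with TMM factors from all chromosomes and 0 under the loess correction (median 0.15). From 55 Mb on chromosome 14, 10 domains had a median of 0.01, and 0 were called by either tool (0 unadjusted). From 29 Mb on chromosome 19, by contrast, all 10 domains were lower in lambs, with a median of -1.14 and a range from -1.57 to -0.63.

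**Figure D5:**
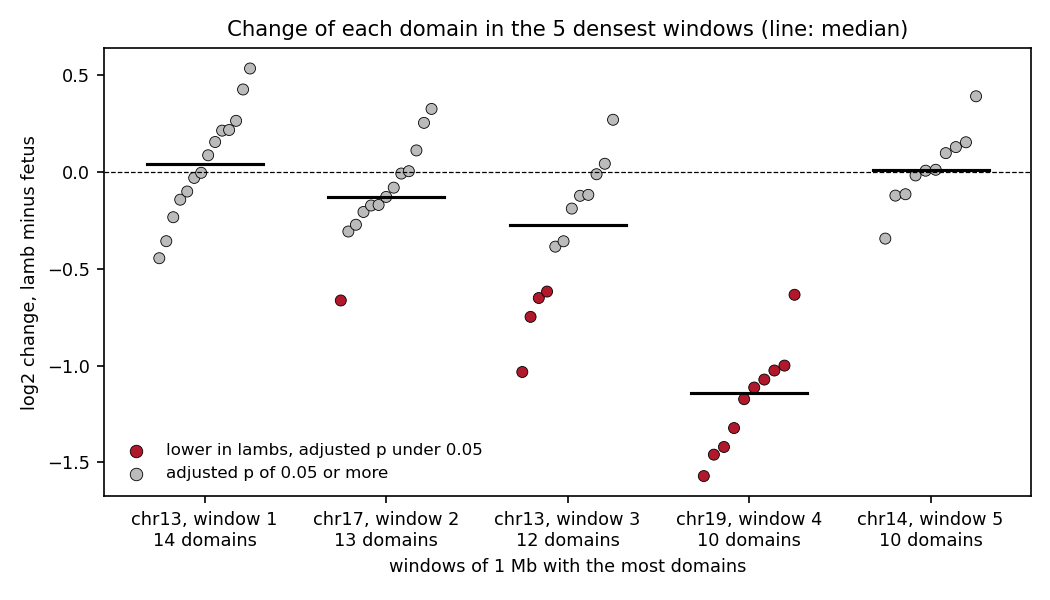
Log2 change from fetus to lamb (vertical) of each domain in the 5 windows of 1 Mb with the most domains, ordered by value within a window, with the median as a line. Red points passed the edgeR adjusted p of 0.05; all 10 domains of the window on chromosome 19 did, between -1.57 and -0.63, and none of the 24 domains in the first and last windows did.

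The 10 domains on chromosome 19 lie between chr19:29151301 and chr19:29660850, a stretch of 510 kb of which they cover 14.5%. Their median density was 11.2 and 9.66 in the fetuses and 4.10 and 4.60 in the lambs. At every one of them both lambs lay below both fetuses. At chr19:29323501-29329100, the domain with the largest change, density went from 11.1 and 12.1 to 4.12 and 3.64 (log2 change -1.57, edgeR adjusted p = 3.3e-09). At chr19:29643401-29653500, the widest of the 10, it went from 12.0 and 12.0 to 5.56 and 5.55 (-1.11, adjusted p = 8.4e-06).

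The fall covered the H3K27me3 around these domains as well. Of 86 other H3K27me3 regions in the stretch, 29 of which overlap another mark, 50 were lower by edgeR and 0 higher (0 at an unadjusted p under 0.05), with a median log2 change of -1.11. In the other 4 windows the surrounding H3K27me3 regions had medians of 0.22 to 0.34. The count of lower domains in the stretch was 9 with library totals, 9 with TMM factors from all chromosomes, 7 under the loess correction, 9 by DESeq2, and 7 to 10 with a library left out.

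H3K27ac in the same stretch moved the other way at some regions. Of 24 H3K27ac regions, 6 were higher in lambs by edgeR and 0 lower (11 and 0 at an unadjusted p under 0.05), with a median log2 change of 0.33; over all autosomal H3K27ac regions tested, 4.36% were higher and 9.39% lower. At chr19:29586201-29587250, which lies 1.0 kb from the domain chr19:29577801-29585200, H3K27ac density was 5.82 and 3.93 in the fetuses and 10.0 and 8.89 in the lambs (log2 change 0.95, edgeR adjusted p = 0.0072). The domain beside it went from 8.89 and 7.12 to 3.33 and 3.06 in H3K27me3 (-1.32, adjusted p = 1.2e-06). At the other 5 the fetuses lay between 3.75 and 5.96 and the lambs between 7.66 and 10.2. The 6 acetylation calls were 0 without lamb 1, 1 without lamb 2 and 12 without fetus 1. By edgeR, 0 of 39 H3K4me3 regions in the stretch were called, and 0 at an unadjusted p under 0.05 (median -0.08; over all autosomal H3K4me3 regions tested, 0.828% were higher and 0.203% lower).

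Of the 120 windows with 3 or more domains, every domain was lower in 5, none was called in 58, and the median was above 0 in 14. A second such window on chromosome 19, singled out after its values were seen, holds the 2 largest falls. Its 6 domains between chr19:7064451 and chr19:7189100 had median densities of 11.1 and 12.4 in the fetuses and 4.01 and 3.99 in the lambs. All 6 were lower, from -2.92 to -1.39, and all 6 remained so with library totals, with TMM factors from all chromosomes, under the loess correction, by DESeq2 and without any 1 library. Of 10 other H3K27me3 regions there, 8 were lower. The stretch held no H3K27ac region that was tested, and edgeR called none of its 14 H3K4me3 regions (0 at an unadjusted p under 0.05). The other 3 windows, on chromosomes 12 and 13, held 3 lower domains each. Those from 32 Mb on chromosome 13 and from 60 Mb on chromosome 12 had 0 lower domains with TMM factors from all chromosomes, under the loess correction and without fetus 2, and 1 without fetus 1. The one from 54 Mb on chromosome 13 had 1 under the loess correction and 2 or 3 with library totals, with TMM factors from all chromosomes, by DESeq2 and with any 1 library left out.

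Domains tended to lie nearer to H3K4me3 than to H3K27ac regions. The median distance was 8.78 kb to an H3K4me3 region and 42.4 kb to an H3K27ac region. Over all autosomal H3K27me3 regions without another mark these distances were 14.2 kb and 36.8 kb. An H3K4me3 region lay within 10 kb of 527 domains (52.7%, against 40.0% over all such regions) and an H3K27ac region within 10 kb of 165 (16.5%, against 21.4%). The next 1000 widest regions were much like the domains in this, with 50.9% within 10 kb of H3K4me3 and 20.8% within 10 kb of H3K27ac. Another H3K27me3 region lay within 5 kb of 967 domains, at a median distance of 0.4 kb, and at 179 of them that neighbour overlapped another mark.

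The share of lower domains was read out by distance to another mark, as a description with no test. Within 10 kb of an H3K27ac or H3K4me3 region, 146 of 561 domains were lower (26.0%) and 6 higher, with a median log2 change of -0.35. From 10 to 50 kb, 53 of 372 were lower (14.2%) and 5 higher, with a median of -0.24. Beyond 50 kb, 18 of 67 were lower (26.9%) and none higher, with a median of -0.36, so the share did not fall steadily with distance.

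The other marks beside the domains were called about as often as those marks elsewhere. Of 162 H3K27ac regions that were the nearest to a domain and within 10 kb, 6 were higher in lambs (3.70%) and 10 lower (6.17%), where 4.36% and 9.39% of all H3K27ac regions tested were. Beside the 217 lower domains there were 48 such regions, of which 2 were higher and 2 lower, with a median log2 change of 0.08 where all H3K27ac regions had 0.00. These counts rested on single libraries: the higher ones ranged from 0 to 33 and the lower ones from 3 to 18 with 1 library left out, and without lamb 1 there were 0 and 3.

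H3K4me3 was called at few regions anywhere. Of 508 nearest H3K4me3 regions within 10 kb, edgeR called 3 higher in lambs and 0 lower (65 and 39 at an unadjusted p under 0.05), where 0.828% and 0.203% of all H3K4me3 regions tested were. Beside lower domains, 0 of 129 were called (10 higher and 8 lower unadjusted), and their median log2 change was 0.11, where all H3K4me3 regions had 0.11. Beside the 11 higher domains, 2 of 6 H3K4me3 regions were higher, with a median of 1.56. Without lamb 2, 0 of the nearest H3K4me3 regions within 10 kb of any domain were called higher, and with library totals 1 was. The H3K4me3 counts also rested on single libraries, with 155 higher and 26 lower without fetus 1, and 59 higher and 41 lower without fetus 2.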

How the data were processed

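Chromatin was cut with micrococcal nuclease to fragments of about 150 bp, precipitated with 10 µg of antibody and sequenced as single-end reads of 50 bp, per the labels. Per the labels, CLC Genomics Workbench 7.0 mapped the reads to Oar_v3.1. The tools bedtools 2.19.0, MACS and edgeR also appear in the submitters' processing notes, with no role stated. The sources used here do not say on which libraries regions were called. Width and density come from the same experiment and are not independent. The authors deposited raw read counts per region, a signed fold change and a corrected p-value. Gene names were taken from the authors' deposited promoter tables, whose values were not used. No input reads enter the tables.

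Deposited starts count from 0 and are printed from 1. Autosomal counts were fitted per mark with edgeR 4.0.16 (TMM, filterByExpr, quasi-likelihood, stage as the only term) and adjusted over all autosomal regions of the mark. For H3K27me3, 82693 regions were tested, and every domain passed the filter on low counts. The test was run on simulated counts with a dispersion (spread beyond counting noise) common to all regions and no general change tied to read number. That setting is simpler than these data, so it cannot show how the test copes with the replicate differences or the loess result above. Alternatives were other scalings, DESeq2 1.42.0, no filter, a replicate block, other limits of width and overlap, and each library left out. Those for the window on chromosome 19 were chosen after seeing the data. With 2 animals a group, p-values rest on the spread shared over regions. Fetus 1 and lamb 1 are different animals, so equal numbers do not pair samples.

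Domains named are the 10 widest, the 6 largest rises and falls among called domains without overlap of the stages, the 4 densest and 4 weakest, 3 on each side of the limit, and the 5 windows with the most domains. The members and lists were chosen with earlier results of these data known.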

Additional observations from a re-analysis of the deposited data

How the results depend on the processing

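With DESeq2 the higher domains numbered 5 and the lower ones 159. Other limits gave 3 higher and 122 lower among the 500 widest, 24 and 356 among the 2000 widest, and a change in read share of -0.51, -0.92 and, where only an overlap of 50% left a region out, -0.92 points. Scalings moved the counts to 27 higher and 134 lower with a median log2 change of -0.14 (library totals), 40 and 75 with -0.020 (all chromosomes) and 93 and 48 with 0.15 (loess). The share of reads turned to 0.43 points with reads of all chromosomes. With 1 library left out, the higher domains ranged from 1 to 26, the lower ones from 45 to 298, the median from -0.36 to -0.27 and the share from -0.78 to -0.64 points. The cause was not tested, beyond fewer samples and what each scaling removes by construction.

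The replicate block, which pairs different animals, gave 14 higher and 305 lower domains with a median of -0.32. The deviations of fetus 1 and lamb 1 correlated at 0.23 over the domains. With the block, the flanking H3K27ac regions numbered 14 higher and 17 lower, and the H3K4me3 regions, without lamb 3, 2 and 0. Within 50 kb, 16 H3K27ac regions were higher and 39 lower, and 10 H3K4me3 regions higher and 0 lower. With library totals 1 H3K4me3 region was higher. With 1 library left out, H3K27ac ranged from 0 to 33 higher and 3 to 18 lower, and H3K4me3 from 0 to 155 higher and 0 to 41 lower.

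Of the named domains, 13 turned positive under at least 1 alternative. Under the loess correction chr22:20748301-20772200 was at 0.35, chr3:132576901-132598050 at 0.37, chr17:46222351-46242100 at 0.53, chr13:40627801-40646750 at 0.054, chr21:23694951-23713100 at 0.14, chr25:25701951-25719250 at 0.17, chr11:13551201-13567850 at 0.31, chr13:40653251-40669400 at 0.053, chr12:40330751-40346550 at 0.63, chr18:6865851-6881550 at 0.00092, chr14:50357601-50367450 at 0.40, chr13:74584401-74590900 at 0.13 and chr13:72785551-72791100 at 0.10. With all chromosomes chr3:132576901-132598050 was at 0.033, chr17:46222351-46242100 at 0.19, chr11:13551201-13567850 at 0.013, chr12:40330751-40346550 at 0.29 and chr14:50357601-50367450 at 0.034. With library totals chr17:46222351-46242100 was at 0.053 and chr12:40330751-40346550 at 0.17. The latter, at 0.00 in the values reported, was also at 0.0018 with the block and at -0.090, 0.093, 0.0056 and 0.010 without fetus 1, fetus 2, lamb 1 and lamb 2.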

Other observations

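The X chromosome, outside the rule, held 23671 H3K27me3 regions, of which 16575 overlapped neither other mark. Of these, 1998 were at least as wide as the narrowest domain, up to 44600 bp. On the autosomal scale their median density was 9.78 and 10.3 in the fetuses and 3.73 and 6.33 in the lambs, so that the lambs differed more from each other here than at the median domain of the autosomes (7.62 and 7.75).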
